A study of Rattus norvegicus with 7 samples.

Results

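Txnip, the other genes with arrestin domains, the thioredoxins and the glucose-sensing factors Mlx and Mlxip were examined in rMSCs, primary mesenchymal stem cells from rat bone marrow, 4 h after seeding on 3 surfaces. The genes were chosen by symbol, and the group was chosen because Txnip was lowest on PCL and highest on TCP. Of the 9 genes (Txnip, Arrdc1, Arrdc2, Arrdc3, Arrdc4, Txn1, Txn2, Mlx and Mlxip), 8 were found among the 17147 gene symbols of the files, and Mlxip was not analysed here. TCP is the tissue culture plate, PCL a polycaprolactone film and ISB-P a film of a polyurethane copolymer of polycaprolactone that contains propoxylated isosorbide. The cells came from a male Sprague-Dawley rat of 6 weeks and were grown in alpha MEM with serum, and 20000 of them were placed on each surface; the films were 16 mm wide and sterilized with EO gas. Values of 7 libraries were used, with 3 for each film and a single one for TCP, and no treatment was applied other than the surface. The study describes its sequencing as replicated, but for TCP a single library was analysed here and its spread is not known. The study calls the film comparison triplicate experiments, and its methods name a single rat as the source of the cells. No source used here says whether the libraries of a film came from separate cultures, so the p-values measure only the spread between these libraries, which may be technical.

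Values are FPKM, fragments scaled by transcript length and by the size of the library, and are therefore comparable between genes within a library. They summed to between 539393 and 660124 per library, which is not a read depth. The depth is unknown, so no counting error or detection limit is given. The label of the cells was checked against markers. Thy1, a surface marker of mesenchymal stem cells, was between 925 and 1210 FPKM in the 7 libraries and Cd44 between 275 and 482. Itgb1 was between 454.7 and 1164 FPKM, whereas Nt5e was between 8.13 and 12.9, Eng between 11.2 and 19.2 and Lepr between 0.386 and 1.29. Pdgfrb was 166 ± 11.6 FPKM (SD, n = 3) on PCL, 97.8 ± 11.5 (SD, n = 3) on ISB-P and 177 on TCP (limma adjusted p = 0.0510, or 1.41e-04 in a fit blocked on replicate number). Pdgfra was 42.9 ± 4.06 FPKM (SD, n = 3) on PCL, 35.0 ± 4.56 (SD, n = 3) on ISB-P and 70.1 on TCP (limma adjusted p = 0.547, or 0.0200 in the blocked fit). Vcam1 averaged 15.1 FPKM on PCL and 16.0 on ISB-P, and was 32.8 on TCP. By contrast Pecam1, an endothelial marker, reached 0.0732. Of the 8 blood cell markers, Ptprc reached 1.48 FPKM at most and Cd34 was listed at 0 in every library, but Lyz2 was between 16.6 and 72.9 FPKM, Cd14 between 10.9 and 31.7 and Cd68 between 3.04 and 15.2, and the whole list summed to between 39.4 and 129.9 FPKM. The 9 stem cell markers found, with Thy1, Itgb1 and Cd44 the most abundant, summed to 2343 FPKM on TCP, 1941, 2315 and 2449 in PCL replicates 1, 2 and 3, and 1988, 2200 and 2744 in those of ISB-P, and the 5 endothelial markers to at most 0.752.

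Thioredoxin is a small protein that reduces disulfides in other proteins, with Txn1 in the cytosol and Txn2 in mitochondria. Txnip binds reduced thioredoxin and blocks it, and it also belongs to the alpha-arrestins, adaptors that bring ubiquitin ligases of the Nedd4 family to membrane proteins so that these are taken into the cell. Txnip and Arrdc4 in this way lower the amount of glucose transporter at the surface, Arrdc3 acts on adrenergic receptors and integrins, and Arrdc1 buds vesicles from the plasma membrane. Transcription of Txnip and Arrdc4 is known to be driven by Mlxip (MondoA) or Mlxipl (ChREBP) paired with Mlx, which bind E-box pairs in promoters when glucose phosphates build up.

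Promoter sequence was taken from RefSeq (GRCr8) for Arrdc4 and Arrdc3, the 2 alpha-arrestins with a window in the table whose film difference was largest, as the 250 bases before the transcript start in the table. Of the 9 genes, 8 have a window in the table; Txnip is the other one. Capitals mark CACGTG (the E-box of Mlx dimers) and CCAAT, the latter also where it is read on the other strand as ATTGG.
Arrdc4, chr1:131793426-131793675, minus strand: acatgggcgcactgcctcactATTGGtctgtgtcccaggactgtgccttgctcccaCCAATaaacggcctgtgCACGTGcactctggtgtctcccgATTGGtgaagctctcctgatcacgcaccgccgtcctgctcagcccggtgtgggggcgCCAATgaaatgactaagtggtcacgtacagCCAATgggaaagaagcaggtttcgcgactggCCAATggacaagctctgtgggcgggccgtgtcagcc
Arrdc3, chr2:12872952-12873201, plus strand: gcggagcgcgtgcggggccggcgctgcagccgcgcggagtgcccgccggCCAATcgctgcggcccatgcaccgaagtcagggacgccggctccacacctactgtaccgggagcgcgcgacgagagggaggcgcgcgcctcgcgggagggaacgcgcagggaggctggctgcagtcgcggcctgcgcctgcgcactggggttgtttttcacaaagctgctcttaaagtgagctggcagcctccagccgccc
The Arrdc4 window holds 1 CACGTG, 177 to 172 bases before the start, and 6 copies of CCAAT. The E-box CACGTG occurs in 5.59% of all 33469 promoter windows and, among the 8 windows of these genes, also in that of Mlx, 70 to 65 bases before its start. CCAAT occurs in 34.0% of windows, at least 3 times in 2.52% and at least 6 times in 0.0329%, the last 2 limits having been set after the sequence was seen. The Arrdc3 window holds 1 CCAAT and lacks CACGTG. A variant of the E-box, CACGAG, which was found in 5.39% of windows, was present in those of Txn1 and Mlxip. These matches describe letters in a window and are not binding sites.

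Txnip was 19.0, 23.0 and 26.1 FPKM in replicates 1, 2 and 3 of PCL, 70.6, 76.9 and 91.5 FPKM in the same replicates of ISB-P, and 170.3 FPKM on TCP. Every ISB-P library lay above every PCL library, and TCP lay above all 6 film libraries. The ISB-P mean of 79.6 ± 10.7 FPKM (SD, n = 3) was 3.51 times the PCL mean of 22.7 ± 3.55 (SD, n = 3), with ratios of 3.71, 3.35 and 3.50 within replicates 1, 2 and 3. TCP was 2.14 times the ISB-P mean and 7.51 times the PCL mean. Among the 9467 tested genes, those that reached 1 FPKM in 3 or more film libraries, Txnip had a higher value than 56.8% to 62.7% of genes on PCL, 85.8% to 87.0% on ISB-P and 95% on TCP. These levels chose the genes, so they are a description and were not tested. In bulk RNA, fewer cells of a type and less RNA per cell cannot be told apart.

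The order seen in Txnip, TCP above every ISB-P library and each of these above every PCL library, held for 135 of the 9467 genes (1.43%), and Txnip was the only one of the 8 measured genes among them. Its place there comes from the values that chose the group, so the shares given here are descriptions. The number of genes in this order was 103 with libraries set to a common total, 154 with a common upper quartile and 180 with common quantiles. It was 205 without ISB-P replicate 1 and 278 without ISB-P replicate 3, where Arrdc1 was also among them. Leaving out a film library can only keep or raise this number. With steps of at least 2-fold between the means, 1 FPKM being added to each, and at least 16 FPKM on TCP, 3 genes of 9467 (0.0317%) had their means in this order, whether or not their libraries overlapped. The others were Timp3, an inhibitor of matrix proteases, which was 33.6 FPKM on TCP and averaged 8.35 ± 0.543 on ISB-P and 2.66 ± 0.567 on PCL (SD, n = 3 each), and the microRNA gene Mir3074. The latter was listed at 435 FPKM on TCP, at 0, 0 and 45.9 FPKM in the PCL libraries and at 0, 109 and 34.4 FPKM in those of ISB-P, so its films overlap.

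**Figure D1:**
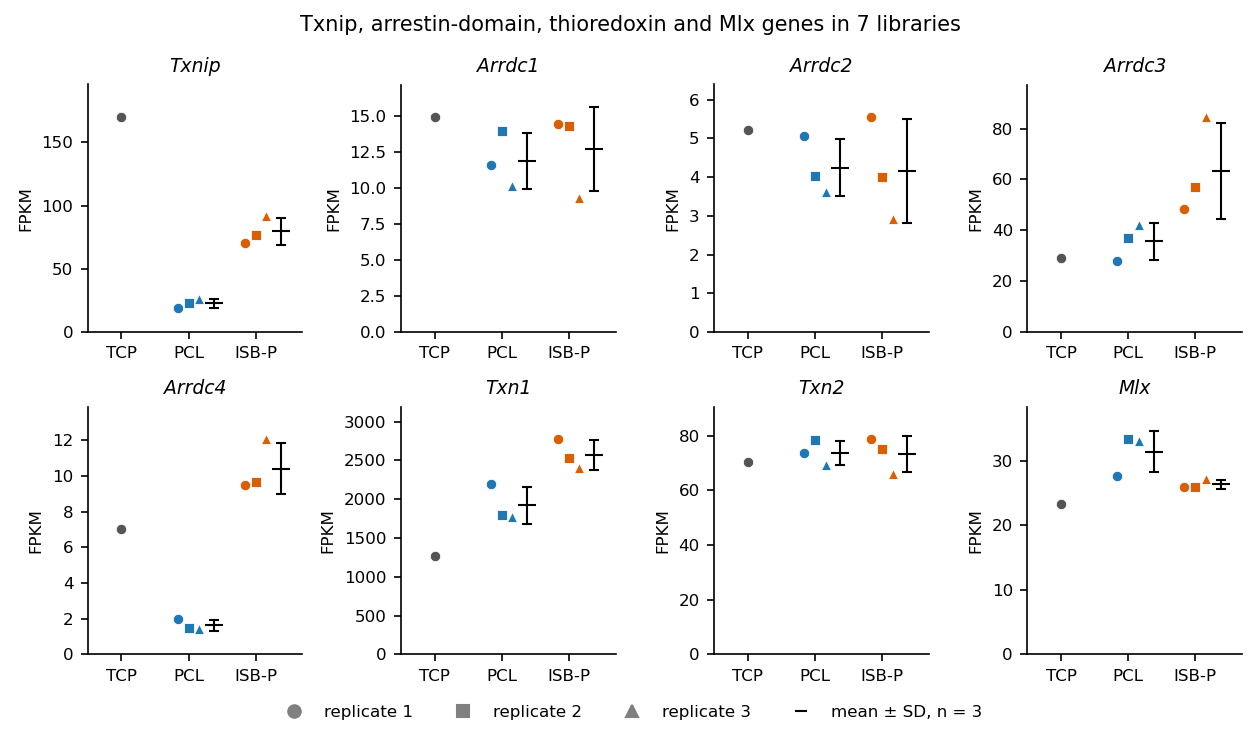
FPKM (y axis, from 0, a scale for each gene) of the 8 measured genes in the TCP, PCL and ISB-P libraries (x axis); symbols give the replicate number, and black bars the mean ± SD of 3 libraries. Txnip and Arrdc4 are low on PCL, where Txnip is at most 26.1 and Arrdc4 at most 1.96 FPKM, Txn1 is lowest on TCP, and Arrdc1, Arrdc2 and Txn2 overlap between the films.

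Arrdc4, the alpha-arrestin closest to Txnip in its known control, was 1.96, 1.45 and 1.43 FPKM in replicates 1, 2 and 3 of PCL, 9.46, 9.67 and 12.1 FPKM in those of ISB-P, and 7.001 FPKM on TCP. It was thus lowest on PCL like Txnip, but highest on ISB-P, with the TCP value under all 3 ISB-P libraries. The order ISB-P, TCP, PCL without overlap was found in 87 of the 9467 genes (0.919%). The mean rose from 1.61 ± 0.302 FPKM (SD, n = 3) on PCL to 10.4 ± 1.44 (SD, n = 3) on ISB-P, a ratio of 6.43, and the ratios within replicates were 4.82, 6.65 and 8.44. On log2(FPKM + 1), a scale that understates the change of low genes, the difference between ISB-P and PCL was 2.12 (standard error 0.14, limma adjusted p = 0.00203), and only 10 of the 9467 genes had a larger increase. Between 3.44% and 7.18% of tested genes had a lower value than Arrdc4 in a PCL library, against 35.5% to 40.3% in an ISB-P library and 27.5% on TCP.

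Arrdc4 was the only gene of the 7 other than Txnip to pass an adjusted p of 0.05 in limma, where 1.10% of all 9467 tested genes passed as higher on ISB-P and 0.623% as lower. Without the adjustment Arrdc3 and Txn1 also passed 0.05 in limma as higher on ISB-P, and no gene of the 7 passed as lower, where 5.51% of all tested genes passed as higher and 6.58% as lower. The median log2 difference of the 7 genes was 0.07, against 0.02 over all tested genes. Libraries of both films that carry the same replicate number deviated together from their film means. With the replicate number as a block, Arrdc3, Arrdc4 and Txn1 passed as higher, none as lower and 4 did not pass, where 13.0% of tested genes passed as higher and 11.4% as lower. By the study's thresholds, 0 of the 7 passed, against 0.687% of tested genes. The thresholds were a fold over 2, p under 0.1 and a normalized value over 16, read here as FPKM since its unit is unstated. Read as FPKM, Arrdc4 lies below that level, and its place in another unit is not known. The ISB-P libraries did not overlap those of PCL for Arrdc3, Arrdc4 and Txn1, which were higher on ISB-P, and for Mlx, which was lower, a separation seen in 8.17% and 9.54% of tested genes. With 3 libraries against 3, a two-sided exact permutation test of a single gene cannot give a p under 0.1. All 8 measured genes had at least 1 FPKM in all 7 libraries, so none was tested through its high group alone.

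**Figure D2:**
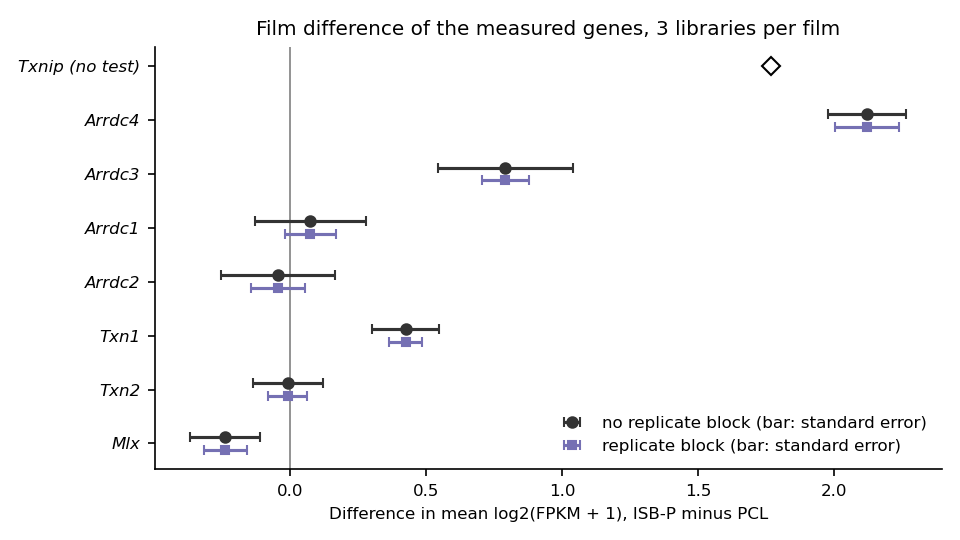
Difference in mean log2(FPKM + 1) between ISB-P and PCL (x axis) for each gene (y axis), with standard errors from limma without (circles) and with (squares) the replicate block; Txnip is shown without an error bar because it was not tested. Arrdc4 lies at 2.12 and Arrdc3 at 0.79, and the bars of Arrdc1, Arrdc2 and Txn2 cross 0.

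Arrdc3 was 27.9, 37.0 and 42.2 FPKM in replicates 1, 2 and 3 of PCL, 48.4, 57.1 and 84.6 FPKM in those of ISB-P, and 29.1 FPKM on TCP, which lay within the range of PCL. The films did not overlap, and on both of them replicate 3 was the highest library. Films apart in either direction, with TCP inside the range of 1 film, were found in 5.32% of tested genes. The log2 difference was 0.79 (standard error 0.25), with an adjusted p of 0.234 in limma and 4.38e-04 with the replicate block, and the ratios within replicates were 1.74, 1.54 and 2.01.
Arrdc1 was 11.9 ± 1.94 FPKM (SD, n = 3) on PCL, 12.7 ± 2.92 (SD, n = 3) on ISB-P and 15.0 on TCP. Arrdc2 was 4.24 ± 0.735 (SD, n = 3), 4.16 ± 1.33 (SD, n = 3) and 5.22 FPKM on the same surfaces. For both genes the ranges of the films overlapped, and the limma adjusted p was 0.954 for Arrdc1 and 0.969 for Arrdc2. Among the alpha-arrestins on ISB-P, Txnip (79.6 FPKM) and Arrdc3 (63.4 ± 18.9 FPKM, SD, n = 3) stood above Arrdc1, Arrdc4 and Arrdc2 on this scale per length, and the ranges of Txnip and Arrdc3 there overlapped.

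Txn1 was the most abundant of these genes, above at least 99.4% of tested genes in every library. It was 2200, 1797 and 1766 FPKM in replicates 1, 2 and 3 of PCL, 2774, 2538 and 2398 FPKM in those of ISB-P, and 1274 FPKM on TCP. TCP was thus the lowest library and all ISB-P libraries were above all PCL libraries, an order shared by 332 of the 9467 genes (3.51%). The log2 difference between the films was 0.42 (standard error 0.12), with an adjusted p of 0.194 in limma and 0.00187 with the replicate block. It was 0.20 under quantile normalization (limma adjusted p = 0.660) and 0.31 with libraries set to a common total (limma adjusted p = 0.466), both without the block, and the block was not combined with these rescalings. Txn2, the mitochondrial form, was 73.8 ± 4.50 FPKM (SD, n = 3) on PCL, 73.4 ± 6.55 (SD, n = 3) on ISB-P and 70.6 on TCP, and did not pass (limma adjusted p = 0.989).
Set against thioredoxin within each library, Txnip amounted to 13.4 FPKM per 100 FPKM of Txn1 on TCP. The same measure was 2.54, 3.03 and 3.81 in ISB-P replicates 1, 2 and 3 and 0.865, 1.28 and 1.48 in those of PCL, so the surfaces did not overlap. It contains the levels of Txnip that chose the group and is given as a description.

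Mlx, the shared partner of the glucose-sensing factors, was 27.7, 33.3 and 33.1 FPKM in replicates 1, 2 and 3 of PCL, 25.9, 25.9 and 27.2 FPKM in those of ISB-P, and 23.2 FPKM on TCP. On the listed FPKM, PCL was the highest surface and TCP the lowest, and 106 of the 9467 genes (1.12%) had this order. PCL replicate 1 of Mlx was close to the highest ISB-P library. The sums of TCP and ISB-P replicate 3, 539393 and 660124 FPKM, differed more than Mlx did between the same libraries. The place of TCP thus depends on the scaling. The log2 difference of -0.24 (standard error 0.13) did not pass in limma without (adjusted p = 0.577) or with the replicate block (adjusted p = 0.0596). Mlxipl, the counterpart of Mlxip in liver and fat, was listed at 0 in all 7 libraries, and its level against Mlxip is not known here.

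Compared with TCP, with 1 FPKM added to each value and no test because TCP has a single library, Txnip lay under TCP by more than 2-fold on both films and Arrdc4 on PCL. Arrdc3 and Txn1 lay above TCP on ISB-P by 2.13-fold and 2.02-fold. When libraries were rescaled to a common upper quartile, a common total or common quantiles, neither passed 2-fold, at 1.86 to 1.95 for Arrdc3 and 1.68 to 1.87 for Txn1. Without ISB-P replicate 1 Txn1 was at 1.94, and without ISB-P replicate 3 Arrdc3 was at 1.78. Among all tested genes, 8.98% were over 2-fold higher and 4.28% over 2-fold lower on ISB-P than on TCP, and 5.56% and 3.04% on PCL. Of the 12 tested clients of thioredoxin, 4 lay over 2-fold above TCP on each film and 0 under it. These were Prdx1, Srxn1, Rrm1 and Rrm2. Rrm1 was 14.9 FPKM on TCP, with means of 75.1 on PCL and 79.8 on ISB-P. Rrm2 was 13.0 FPKM on TCP, with means of 132.8 on PCL and 139.5 on ISB-P. The TCP library also held more signal from the blood cell and adipocyte markers than any film library. The endothelial markers summed to 0.631 FPKM on TCP, within the 0.618 to 0.752 of ISB-P and above the 0.354 to 0.409 of PCL. The 8 blood cell markers summed to 129.9 FPKM on TCP, 39.4, 46.7 and 44.5 in PCL replicates 1, 2 and 3, and 39.7, 45.6 and 45.5 in those of ISB-P, with Lyz2 of macrophages the most abundant at 72.9 FPKM on TCP, while Cd34 was listed at 0. The 4 adipocyte markers summed to 75.9 FPKM on TCP, 19.99, 24.7 and 32.1 on PCL and 23.7, 26.0 and 41.1 on ISB-P, of which Fabp4 made 71.1 on TCP, and Cidec was listed at 0 there. Their part in the differences from TCP was not tested.

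Genes that work with this group were taken from 9 lists. Of their 88 tested genes, 2 passed in limma as higher on ISB-P and none as lower, which is 2.27% against 1.72% of all tested genes. With the replicate block 16 passed as higher and 8 as lower, 27.3% against 24.4%. Both shares are near that of all tested genes.

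Srxn1 and Klf10 were the 2 that passed. Srxn1, sulfiredoxin, which repairs overoxidized peroxiredoxins, was 374.5, 378.6 and 375.5 FPKM in replicates 1, 2 and 3 of PCL, 617.5, 598.4 and 586.9 FPKM in those of ISB-P, and 87.3 FPKM on TCP. Its libraries differed little within a film, and the log2 difference was 0.67 (standard error 0.10, limma adjusted p = 0.0287). The call was lost under each of the 3 rescalings, and without any one library other than ISB-P replicate 3. Klf10, a zinc finger repressor that carbohydrate-response factors are known to switch on, was 19.6, 22.7 and 23.4 FPKM on PCL, 46.3, 50.0 and 59.7 FPKM on ISB-P and 43.5 FPKM on TCP. On the listed FPKM it had the same order as Arrdc4, with TCP between the films, and a log2 difference of 1.21 (standard error 0.15, limma adjusted p = 0.0166). Without ISB-P replicate 2 or any one PCL library it was no longer called. Klf10 differed less between TCP and ISB-P replicate 1 than their sums did, 539393 and 592929 FPKM. Its order against TCP thus depends on the scaling.

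Among 19 tested genes of the thioredoxin system, none passed in limma, and with the block 3 passed as higher and 0 as lower (median log2 difference 0.08). That is 15.8% of the list, under the 24.4% of all tested genes. Txnrd1, the reductase that recharges cytosolic thioredoxin, was 337, 365 and 418 FPKM in replicates 1, 2 and 3 of PCL, 487, 521 and 609 FPKM in those of ISB-P, and 74.6 FPKM on TCP. All film libraries were over 4 times the TCP value, and the ratio between the films was 1.44, 1.43 and 1.46 within replicates (log2 difference 0.53, adjusted p = 0.162 in limma and 5.52e-04 with the block). Txnl1 and Tmx1, a thioredoxin-like and a membrane thioredoxin protein, were the others that passed with the block, with log2 differences of 0.28 and 0.34 and films that overlapped. Txnrd2, the mitochondrial reductase, was between 3.78 and 5.35 FPKM in all libraries.
Of 12 tested clients of thioredoxin, Prdx1, a peroxiredoxin that removes hydrogen peroxide, was 904, 1372 and 1550 FPKM on PCL, 1558, 2369 and 3402 FPKM on ISB-P and 535 FPKM on TCP. Its highest PCL library lay just under its lowest ISB-P library, and the log2 difference of 0.90 passed only with the block (adjusted p = 0.303 in limma and 1.49e-04 with the block). Map3k5 (Ask1), a kinase held inactive by reduced thioredoxin, had a log2 difference of -0.48 and passed as lower with the block (adjusted p = 0.0171; 0.207 in limma).

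**Figure D3:**
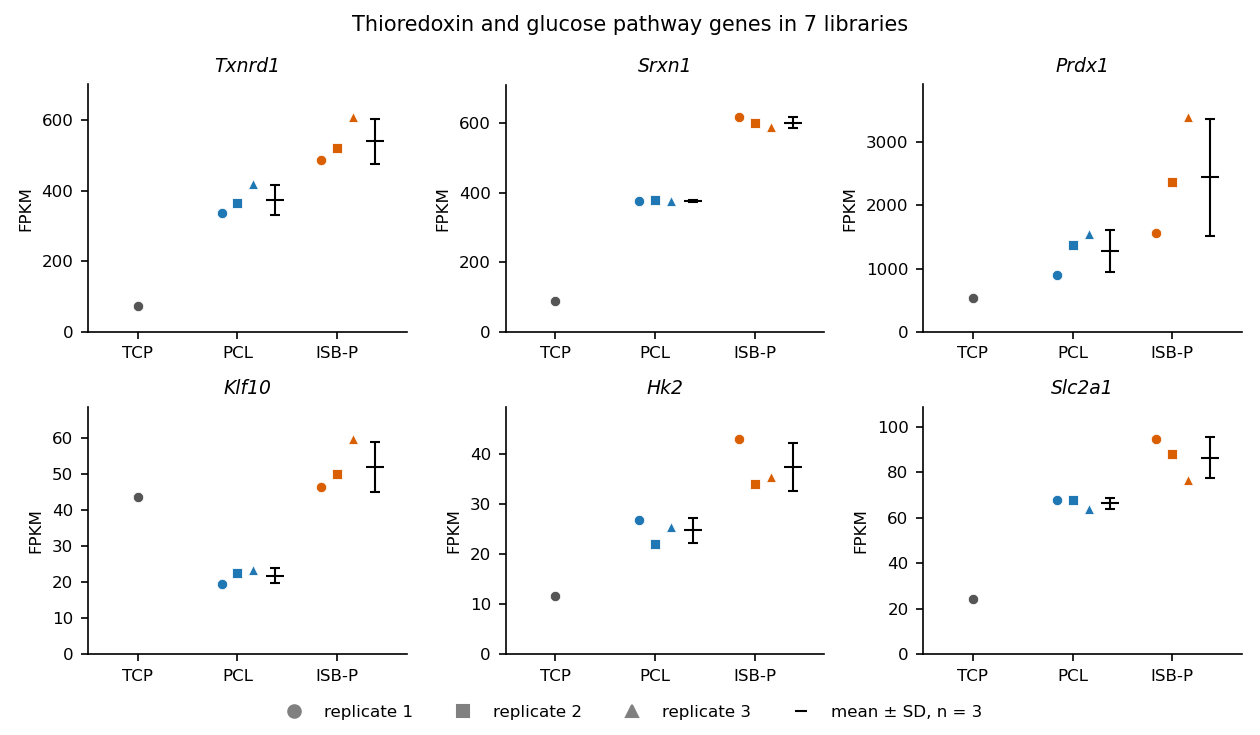
FPKM (y axis, from 0, a scale for each gene) of 6 pathway genes in the TCP, PCL and ISB-P libraries (x axis); symbols give the replicate number, and black bars the mean ± SD of 3 libraries. The 3 surfaces do not overlap for any of the 6 genes, and TCP is lowest for all except Klf10, where it lies between the films at 43.5 FPKM.

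Of the 9 tested targets of carbohydrate-response factors, 1 passed in limma, and 5 passed as higher and 0 as lower with the block (Klf10, Hk2, Me1, Scd and Scd1), with a median log2 difference of 0.34. These are 11.1% of the list against 1.72% of all tested genes without the block and 55.6% against 24.4% with it, counts of few genes that were not tested as a list. Hk2, a hexokinase that traps glucose in the cell, was 24.7 ± 2.46 FPKM (SD, n = 3) on PCL, 37.4 ± 4.78 (SD, n = 3) on ISB-P and 11.7 on TCP (log2 difference 0.58, adjusted p = 0.146 in limma and 0.00123 with the block). Hk1, a more abundant hexokinase from the list of glucose entry, was between 91.8 and 112.1 FPKM in the 7 libraries. Its log2 difference was -0.06, and it passed in neither fit. Scd, a fatty acid desaturase, was 238 ± 16.4 FPKM (SD, n = 3) on PCL, 308 ± 35.2 (SD, n = 3) on ISB-P and 426 on TCP, and had the order of Txnip. Scd1 is a near copy of Scd, and reads may have been shared between them. Me1, malic enzyme, had a log2 difference of 0.50 with films that overlapped. Fasn and Acaca, the enzymes that build fatty acids, had log2 differences of -0.19 and -0.06 and passed in neither fit.
For glucose entry, Slc2a1 (Glut1), a transporter that Txnip is known to take off the cell surface, was 67.7, 67.7 and 63.7 FPKM in replicates 1, 2 and 3 of PCL, 94.6, 88.2 and 76.8 FPKM in those of ISB-P, and 24.5 FPKM on TCP. It was lowest on TCP, where Txnip was highest, but higher on ISB-P than on PCL, as Txnip was (log2 difference 0.37, adjusted p = 0.291 in limma and 0.00730 with the block). With the block 2 of 12 tested genes of this list passed as higher, Slc2a1 and the phosphofructokinase Pfkp, and 1 as lower, Pfkfb4, which is 25.0% of the list against 24.4% of all tested genes. Slc2a3, a further glucose transporter, was listed at 0 in all libraries.

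The remaining lists held no gene that passed in limma without the block, and their counts with the block stand against 13.0% of all tested genes that passed as higher and 11.4% as lower, 24.4% in all. Of 5 tested arrestins and arrestin-like Vps26 genes, 2 passed as lower and 1 as higher with the block, 60.0% of the list against 24.4%. Arrb1 (beta-arrestin 1) was 19.9 ± 2.58 FPKM (SD, n = 3) on PCL and 14.8 ± 3.40 (SD, n = 3) on ISB-P (log2 difference -0.42, adjusted p = 0.00758 in limma with the block). Vps26b was also lower and Vps26a higher, and the films overlapped for each of these genes. Of 11 tested Nedd4 ligases and their adaptors, Wwp2 alone passed with the block, as lower (log2 difference -0.32), which is 9.09% of the list against 24.4%. Nedd4 itself was the most abundant of them, between 327 and 538 FPKM. Of 7 tested genes in the network of Max and Mlx, Mxd3 and Mxd4, repressors that pair with Max, passed as lower with the block. Their log2 differences were -0.48 and -0.35, and they make 28.6% of the list against 24.4%. Prkab2, a subunit of the AMP-activated kinase that marks Txnip for degradation, passed as higher with the block (log2 difference 0.39). It was the only one of 6 tested genes of that list to pass, 16.7% against 24.4%. Among 7 tested genes of the inflammasome, which Txnip can bind through Nlrp3, Nlrp3 and Il18 passed as higher and Gsdmd as lower with the block. That is 42.9% of the list against 24.4%. All these lists are short, and no share of them was tested against that of all tested genes. Nlrp3 was 2.09 ± 0.170 FPKM (SD, n = 3) on PCL, 2.90 ± 0.374 (SD, n = 3) on ISB-P and 0.708 on TCP.

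The genes whose pattern was most like that of Txnip were found by Pearson correlation of log2(FPKM + 1) over the 7 libraries, among the 4801 other tested genes that averaged 16 FPKM or more. The libraries share surfaces and replicate numbers, so these values are descriptions. Arf2, a small GTPase of vesicle traffic, came first (r = 0.985), with 54.6 FPKM on TCP and means of 42.2 ± 6.74 on ISB-P and 20.3 ± 2.26 on PCL (SD, n = 3 each). Tsc22d3 (Gilz), a target of glucocorticoid and Foxo signalling, came next (r = 0.975), at 45.3 FPKM on TCP and means of 36.1 ± 6.08 on ISB-P and 11.6 ± 1.72 on PCL (SD, n = 3 each). The transcription factor Tbx18, Oraov1, the transcription factor Snai2, the cyclin kinase inhibitor Cdkn2b, Scd, the desmosome protein Pkp1, the kinase Plk2 and Nrep followed, with r from 0.969 down to 0.941. Snai2 came nearest to Txnip in its step from ISB-P to TCP, where its TCP value of 43.3 FPKM was 2.08 times the ISB-P mean. For 9 of the 10 genes TCP was above all ISB-P libraries and these above all PCL libraries, and for Nrep TCP lay within the range of ISB-P. Of the measured relatives, Arrdc4 had r = 0.859 and ranked 127 of 9466 tested genes, Arrdc3 had 0.327, Txn1 -0.12 and Mlx -0.82.

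**Figure D4:**
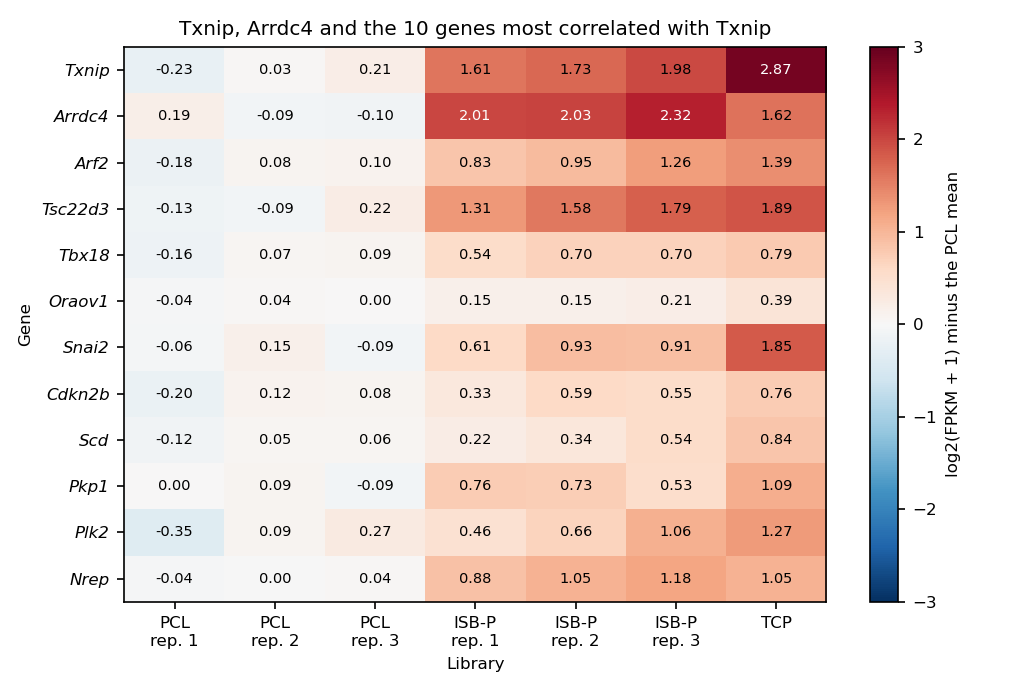
Level of each gene (rows) in each library (columns) as log2(FPKM + 1) minus the mean of the 3 PCL libraries, shown by colour and printed in each cell. Txnip reaches 2.87 on TCP, more than any other gene shown, and Arrdc4 is the only gene shown whose 3 ISB-P libraries are all above TCP (2.01, 2.03 and 2.32 against 1.62).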

How the data were processed

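The authors made strand-specific TruSeq libraries from polyadenylated RNA, and the deposited FPKM values (1 column per library, 17147 symbols) were used unchanged. The submitters' processing notes name bcl2fastq 2.20.0.422, cutadapt 1.18, TopHat2 2.0.13, Cuffdiff 2.2.1 and the build rn5, and the paper names ExDEGA. The unit was read from Cuffdiff and from the values; the annotation and any further scaling are not given in the sources used here.

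Groups and replicate numbers came from the sample titles. ISB-P and PCL were compared with limma (3.58.1, under R 4.3.3; eBayes with its trend option), two-sided, on log2(FPKM + 1) of the 9467 genes that reached 1 FPKM in 3 or more film libraries, with Benjamini-Hochberg adjustment over all of them and a threshold of 0.05. TCP, with 1 library, was compared by ratios of means plus 1, with 2-fold as the limit. Deviations from the film mean, compared over the tested genes, which are not independent replicates, correlated at 0.887, 0.431 and 0.867 between libraries of the same number and at -0.836 to 0.177 between others, so a fit with the replicate number as a block stands beside the other where it changes a call.

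Members and lists were chosen with earlier results of these data known. The text names all members, the listed genes past an adjusted p of 0.05 in either fit, the 10 genes most correlated with Txnip, and genes whose means had its order with 2-fold steps. Txnrd2, Rrm1, Rrm2, Fasn, Acaca, Hk1, Nedd4, Mlxipl and Slc2a3 were named after their values were seen. Reads of overlapping genes or close copies may have been split between them. Promoter windows are RefSeq's (GRCr8) and protein sequences were not used here. The alternatives were 3 scalings, 2 filters, a pseudocount of 0.1, the block, TCP in the fit, the study's thresholds (fold over 2, unadjusted p under 0.1 and a normalized value over 16, its unit not stated and read here as FPKM) and each film library left out. Figures were drawn with matplotlib 3.10.9.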

Additional observations from a re-analysis of the deposited data

How the results depend on the processing

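Arrdc4 was called under every alternative fit of the adjusted p, with log2 differences from 2.02 to 2.62 and adjusted p from 1.13e-05 to 0.0364, but its level is below the study's minimum of 16, read as FPKM, under which 0 of the 7 genes passed. With the replicate block 3 of the 7 were called, and 24 genes of the lists against 2; the block changed no other call of the 7. All tested genes called numbered 163, and 105 with at least 1 FPKM in all 6 film libraries, 2307 with the replicate block, 65 by the study's thresholds and 20 to 113 with a library left out. With libraries set to a common total, the split of calls was 70 higher and 70 lower in place of 104 and 59, and the median log2 difference of all genes -0.09 in place of 0.02. List genes called fell to 1 under each of the 3 scalings and ranged from 0 to 2 with a library left out. The ratio of Txnip on ISB-P to PCL was 3.32 under quantile normalization and 3.24 with a common total, and 3.25 to 3.79 with a library left out. That of TCP to ISB-P was 2.55 and 2.44 under these scalings and 2.02 to 2.31 with a library left out. Members over 2-fold from TCP on ISB-P numbered 1 in place of 3 under each scaling and 2 to 3 with a library left out. Without ISB-P replicate 3 Arrdc1 also had the order of Txnip, so that 1 to 2 genes had it. Of the 10 genes most like Txnip, 5 were also among the first 10 under upper quartile scaling. Precision rests on 3 libraries per film and 1 of TCP, since depth is unknown.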
